A study of Rattus norvegicus with 8 samples.

Results

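The proteasome is the cell's main protease for proteins tagged with ubiquitin. Its 20S core is a barrel of alpha rings, which gate the entrance, and beta rings, which hold the cutting sites. The 19S cap recognises the ubiquitin chain, unfolds the protein with its ATPases and feeds it into the core, and other activators can take the place of the cap. In cells of the immune system, and in other cells under interferon-gamma, the inducible subunits Psmb8, Psmb9 and Psmb10 replace the standard catalytic subunits Psmb5, Psmb6 and Psmb7, and this immunoproteasome cuts peptides for display on MHC class I. Reticulocytes, the young red cells that still carry RNA, also hold proteasomes, which take part in the clearing of proteins as the red cell matures.

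The genes described here are the 43 whose symbol begins with Psma, Psmb, Psmc, Psmd or Psme and ends in a number, of 17446 genes counted in whole blood. They comprise 8 alpha subunits of the 20S core, 4 beta subunits without a cutting site, 3 standard catalytic beta subunits, 4 inducible or tissue-specific beta subunits, 6 ATPases of the 19S cap, 11 other subunits of the cap, 3 chaperones of its assembly (Psmd5, Psmd9 and Psmd10) and 4 activators. Blood came from adult male wild type Wistar rats in which hypertension had been induced before Chios mastic gum (CMG), the resin of Pistacia lentiscus var. Chia, was given at 220 mg/kg for 4 weeks. In the AngII model, where the vasoconstrictor peptide angiotensin II was infused at 0.4 mg/kg/day, libraries came from week 1, before CMG, and week 5, after it. In the DOCA–HS model, where the mineralocorticoid deoxycorticosterone acetate was given at 100 mg/kg with 0.9% NaCl and 1% KCl in the drinking water, they came from week 3 and week 7. Each of the 4 groups had 2 libraries, and no library of hypertensive rats without CMG over the same weeks was analysed here. A difference between after and before CMG therefore also holds 4 further weeks of the model, and the effects cannot be told apart. The labels do not state whether libraries came from separate rats, so p-values measure the spread between these libraries only.

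Levels are normalized CPM, which is each count divided by the library's size after edgeR's TMM scaling. Fold changes and p-values come from edgeR's quasi-likelihood test over all genes, with the 4 libraries of a model fitted alone for after against before CMG. A gene was called up or down where its log2 fold change lay beyond 1.5 and its unadjusted p was at most 0.05. This criterion was taken over from the study. Adjusted p-values are Benjamini-Hochberg values across every gene in the fit, and 0 genes (0%) had one under 0.05 in any of the 4 comparisons. The counts are not per transcript length, so levels are compared between libraries and not between genes. In whole blood, fewer cells of a type and less RNA per cell cannot be told apart.

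The libraries held 4149104 to 13205565 counts, of which 2 hemoglobin genes took 61.9% to 84.3%. The DOCA–HS after library of replicate 2 stood apart, with the lowest total, the highest hemoglobin share, a TMM factor of 0.34 where the others had 0.78 to 1.88, and 651764 counts outside the hemoglobin genes where the others had at least 2195735. It held 1485 counts of the 43 genes, while the other 7 libraries held 3702 to 9290. In it 14 of the 43 genes had fewer than 10 counts, and 7 had 3 counts or fewer. The blood showed the markers of its cells: T cell markers summed to 118 to 205 CPM, monocyte markers to 387 to 679 and neutrophil markers to 117 to 484. Those of erythroid cells summed to 10029 to 35566 CPM, with the highest sum in the same DOCA–HS library. Of the heart muscle markers 4 of 5 were at 0 in every library, and hepatocyte markers summed to at most 6.33 CPM.

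Of the 43 genes, 40 passed the filter on low counts in each comparison. Psma8, a testis subunit, and Psmb11, the subunit of the thymus proteasome, had 0 counts in every library, which allows up to 3 counts in each. Psmd10, an assembly chaperone, had 0 to 16 counts and was not tested. Summed over all members, the level was 628 and 808 CPM before and 592 and 529 CPM after CMG in AngII rats. It was 515 and 592 CPM before and 508 and 1044 CPM after CMG under DOCA–HS. In the AngII model both after libraries thus lay below both before libraries, while under DOCA–HS one after library lay below and the other above both before libraries. The AngII order depends on the scaling: the log2 difference of the sum was -0.35 with TMM and 0.02 per total count.

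**Figure D1:**
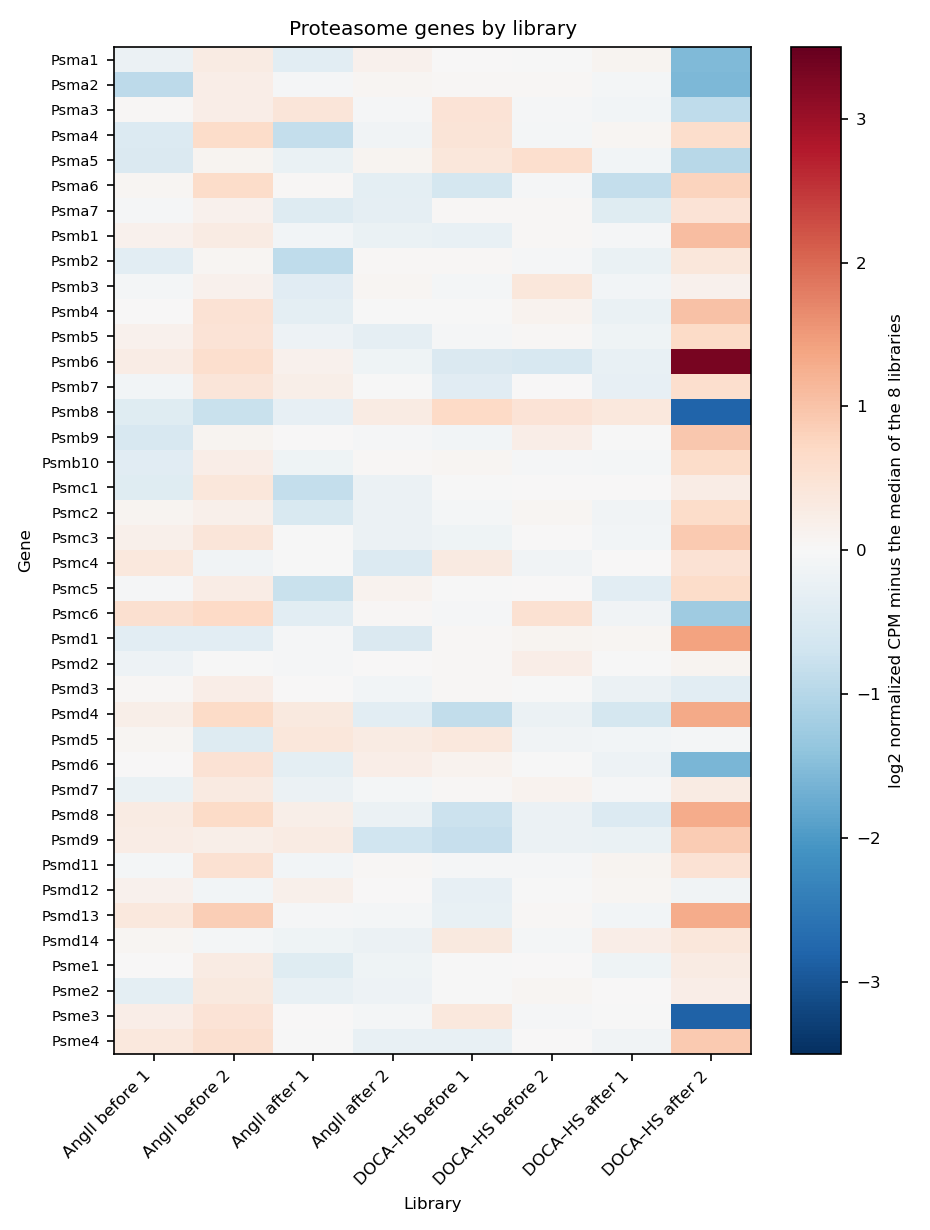
Level of each of the 40 tested proteasome genes (vertical axis) in the 8 libraries (horizontal axis), as log2 normalized CPM minus the gene's median over the libraries (colour). Most cells lie near 0, and the last column, DOCA–HS after replicate 2, holds the largest departures, with Psmb6 at 20.4 CPM and Psmb8 at 0.70 CPM.

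The standard catalytic subunits of the core each lay lower on average after CMG in AngII rats, though none was called. Psmb5, which carries the chymotrypsin-like activity, was at 8.80 and 11.1 CPM before CMG and at 7.04 and 6.43 CPM after it in AngII rats. Its DOCA–HS levels were 7.70 and 8.29 CPM before and 7.15 and 12.7 CPM after. The AngII groups of Psmb5 did not overlap (log2 fold change -0.54, SE 0.29, edgeR adjusted p = 0.774), and the DOCA–HS groups did (0.23, SE 0.48). Psmb7, the trypsin-like subunit, was at 10.9 and 15.7 CPM before and at 13.4 and 11.6 CPM after CMG in AngII rats. It was at 8.81 and 11.8 CPM before and at 9.61 and 17.6 CPM after under DOCA–HS. The groups of Psmb7 overlapped in both models, with log2 fold changes of -0.06 and 0.34.

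Psmb6, the caspase-like subunit, was the 1 proteasome gene called after against before CMG in either model. It was at 2.44 and 3.04 CPM before and at 2.24 and 1.85 CPM after CMG in AngII rats. Under DOCA–HS it was at 1.44 and 1.38 CPM before and at 1.69 and 20.4 CPM after. In counts, the DOCA–HS values were 26 and 13 before and 22 and 29 after, so the shallowest library held more reads of Psmb6 than the deeper ones beside it. The log2 fold change under DOCA–HS was 2.63 (SE 1.04, unadjusted p = 0.0337, edgeR adjusted p = 0.997), and it was 0.27 without the DOCA–HS after library of replicate 2. The call was also lost when counts were scaled per total count, at a log2 fold change of 1.11. RefSeq's gene table names 3 copies of Psmb6 (Psmb6-ps1, Psmb6-ps2 and Psmb6l1), and the counting could have split reads between them, so its level is uncertain.

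The inducible subunits did not share the lower values of Psmb5 and Psmb6 in AngII rats. The third pair hardly differed there, with log2 fold changes of 0.04 (SE 0.32) for Psmb10 and -0.06 (SE 0.31) for Psmb7. Psmb8, which replaces Psmb5, was at 3.62 and 2.87 CPM before CMG and at 4.0 and 5.99 CPM after it in AngII rats. DOCA–HS rats had it at 7.98 and 6.80 CPM before and at 6.38 and 0.70 CPM after. The groups overlapped in neither model, with higher values after CMG in AngII rats (log2 fold change 0.64, SE 0.35, edgeR adjusted p = 0.774) and lower ones under DOCA–HS (-0.71, SE 0.63, edgeR adjusted p = 0.997). The value of 0.70 CPM was 1 count, with an exact Poisson 95% interval of 0.025 to 5.57 counts, where the level of the other after library would have given 9.08 counts in this library. Without that library the DOCA–HS log2 fold change of Psmb8 was -0.21.

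Psmb9, which replaces Psmb6, was at 9.67 and 15.2 CPM before and at 14.4 and 13.9 CPM after CMG in AngII rats. It was at 13.3 and 16.7 CPM before and at 14.1 and 27.4 CPM after under DOCA–HS. Psmb10, which replaces Psmb7, was at 9.98 and 15.4 CPM before and at 11.8 and 13.6 CPM after in AngII rats, and at 13.8 and 12.7 CPM before and 12.5 and 20.4 CPM after under DOCA–HS. The groups of both genes overlapped in both models. Tap1, a subunit of the peptide transporter of MHC class I whose gene lies between Psmb8 and Psmb9, had log2 fold changes of 0.56 (SE 0.33) in AngII rats and -0.003 (SE 0.46) under DOCA–HS, neither called.

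Promoters of some of these genes are shown because the inducible subunits answer to interferon and the standard ones to NFE2L1. This factor raises proteasome genes when proteasomes are inhibited. The sequences are RefSeq's for GRCr8, another build than the rn6 to which the reads were aligned, and run from 100 bases before to 25 bases from the annotated gene start, along the gene's strand. Capitals in Psmb8, Psmb10 and Psme2 mark the core of the interferon-stimulated response element, GAAA and again GAAA with any 2 bases between them, read on either strand. The windows lie on the minus strand at chr20:4657007-4657131 (Psmb8), chr19:50743268-50743392 (Psmb10) and chr15:33052727-33052851 (Psme2).
Psmb8: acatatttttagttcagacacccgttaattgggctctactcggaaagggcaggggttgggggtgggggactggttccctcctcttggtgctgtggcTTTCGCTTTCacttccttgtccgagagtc
Psmb10: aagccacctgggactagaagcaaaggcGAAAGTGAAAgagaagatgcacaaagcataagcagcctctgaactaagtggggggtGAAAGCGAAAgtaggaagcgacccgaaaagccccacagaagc
Psme2: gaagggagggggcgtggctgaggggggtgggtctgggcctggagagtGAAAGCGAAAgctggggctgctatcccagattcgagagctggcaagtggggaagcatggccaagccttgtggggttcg
Capitals in Psmb5 and Psmb6 mark TGACNNNGC, the core of the antioxidant response element that NFE2L1 and its relatives bind, again on either strand. These windows lie at chr15:32047355-32047479 on the minus strand (Psmb5) and chr10:55737788-55737912 on the plus strand (Psmb6).
Psmb5: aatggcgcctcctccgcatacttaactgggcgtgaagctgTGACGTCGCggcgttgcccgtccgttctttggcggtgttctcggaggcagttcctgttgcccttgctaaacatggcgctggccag
Psmb6: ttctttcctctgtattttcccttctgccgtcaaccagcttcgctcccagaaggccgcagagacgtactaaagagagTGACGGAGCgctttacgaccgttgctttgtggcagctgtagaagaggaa

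A promoter window of 300 bases was found for 38 of the 43 members. The interferon letters were in those of 6 (Psma4, Psmb3, Psmb8, Psmb10, Psmd7 and Psme2) and in 3.92% of all 33469 windows. The letters TGACNNNGC were in those of 8 (Psma3, Psmb2, Psmb5, Psmb6, Psmd1, Psmd3, Psmd9 and Psme4) and in 12.1% of all windows. The sequences shown were chosen among members with a match. The inducible Psmb9 was not among those with the interferon letters, nor the standard Psmb7 among those with TGACNNNGC. The matches are descriptions of sequence. Of the genes with the interferon letters, Psmb8 had a log2 fold change of 0.64 in AngII rats, Psmb10 of 0.04, Psmd7 of -0.15, Psmb3 of -0.16, Psme2 of -0.21 and Psma4 of -0.54, none called, and differences between these genes were not tested.

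A ratio of inducible to standard counts within a library does not depend on how libraries are scaled. The counts of Psmb8, Psmb9 and Psmb10 together, divided by those of Psmb5, Psmb6 and Psmb7, gave 1.05 and 1.12 before CMG and 1.33 and 1.68 after it in AngII rats. In the DOCA–HS model they gave 1.96 and 1.69 before and 1.79 and 0.96 after. On the log2 scale the groups were 0.12 ± 0.06 and 0.58 ± 0.24 in AngII rats and 0.86 ± 0.15 and 0.39 ± 0.64 under DOCA–HS (mean ± SD, 2 libraries each). The AngII before libraries thus lay below the AngII after libraries and below all DOCA–HS libraries but the shallow one. The 95% interval for counting error of the shallow library ran from 0.68 to 1.35. Those of the AngII libraries ran from 0.89 to 1.24 and 0.91 to 1.38 before, and from 1.06 to 1.67 and 1.44 to 1.97 after CMG. The interval of AngII after replicate 1 thus overlapped those of both before libraries. A score over chosen members has no p here.

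The ratio also held its order in AngII rats with Psmb9 and Psmb6 left out, a choice made after the values were seen, at 0.69 and 0.68 before and 0.77 and 1.09 after CMG. Of the single ratios, Psmb8 to Psmb5 was 0.41 and 0.26 before and 0.57 and 0.93 after CMG in AngII rats, and Psmb9 to Psmb6 was 3.97 and 5.0 before and 6.43 and 7.52 after. Both were higher in each after library than in each before library. Psmb10 to Psmb7 was 0.91 and 0.98 before and 0.88 and 1.17 after, and overlapped. The summed erythroid markers lay at 19941 and 26323 CPM before and at 19751 and 12800 CPM after CMG in AngII rats, and their part in the ratio was not tested.

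**Figure D2:**
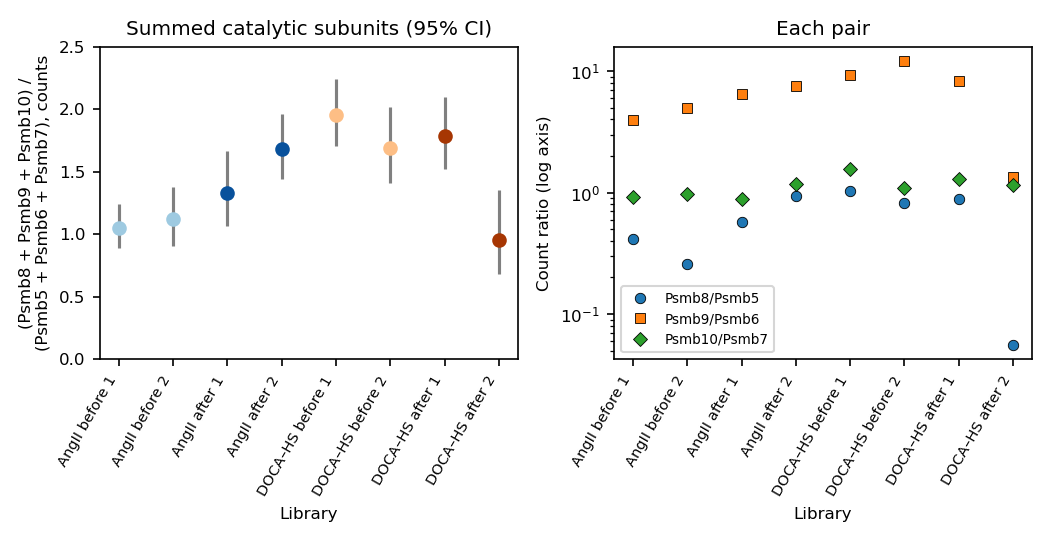
Counts of inducible divided by standard catalytic subunits in each library, summed with 95% intervals for counting error (left) and for each exchanged pair on a log axis (right). The summed ratio was 1.05 and 1.12 in the AngII before libraries, 1.33 and 1.68 in the AngII after libraries, and 0.96 in DOCA–HS after replicate 2, where the other DOCA–HS libraries had 1.69 to 1.96.

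The other beta and the alpha subunits, which build the rings, were not called in any comparison. The 4 beta subunits without a cutting site lay below 0 in AngII rats, with log2 fold changes of -0.41 to -0.12, and Psmb1 and Psmb4 did so without overlap. In the DOCA–HS model they ranged from -0.17 to 0.70. The 7 tested alpha subunits ranged from -0.54 to 0.32 in AngII rats and from -0.78 to 0.46 under DOCA–HS.

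Of the alpha subunits, Psma2 was at 4.40 and 9.80 CPM before and at 8.16 and 8.73 CPM after CMG in AngII rats, and at 8.48 and 8.60 CPM before and 7.92 and 2.81 CPM after under DOCA–HS. The lowest value of Psma2 in AngII rats was that of before replicate 1, and its log2 fold change of 0.32 turned to -0.20 without that library. Psma5 was at 2.91 and 4.39 CPM before and at 3.52 and 4.36 CPM after in AngII rats. The DOCA–HS libraries had it at 5.37 and 6.16 CPM before and at 3.84 and 2.11 CPM after, lower in both after libraries (log2 fold change -0.78, SE 0.48, edgeR adjusted p = 0.997). Without the shallow library, in which Psma5 had 3 counts, the log2 fold change was -0.56.

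All 6 ATPases of the 19S cap, the motors that unfold the substrate, lay lower on average after CMG in AngII rats, with log2 fold changes of -0.74 to -0.32 and none called. Psmc6 was at 4.95 and 5.41 CPM before and at 2.56 and 3.40 CPM after CMG in that model, and its groups did not overlap. Its log2 fold change of -0.74 (SE 0.32, unadjusted p = 0.0481, edgeR adjusted p = 0.747) was the 1 value of a member with an unadjusted p of at most 0.05 there, where 6.65% of all genes reached that p. In the DOCA–HS model Psmc6 was at 3.27 and 4.78 CPM before and at 3.08 and 1.41 CPM after (log2 fold change -0.58, SE 0.51), the last of these being 2 counts. The other 5 ATPases lay above 0 under DOCA–HS, from 0.11 to 0.52.

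The remaining subunits of the cap include its receptors for ubiquitin and its deubiquitinating enzyme, Psmd14. In the AngII model 8 of 11 lay below 0, from -0.66 to 0.12 over the group, and under DOCA–HS 8 of 11 lay above 0, from -0.52 to 1.16. Psmd13, a subunit of the lid of the cap, was at 26.2 and 36.8 CPM before and at 19.5 and 19.5 CPM after CMG in AngII rats. Under DOCA–HS Psmd13 was at 17.0 and 20.9 CPM before and at 19.1 and 49.9 CPM after. The AngII groups of Psmd13 did not overlap (log2 fold change -0.66, SE 0.31, edgeR adjusted p = 0.752), and under DOCA–HS 1 library was high (0.83, SE 0.56).

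Psmd4, which binds ubiquitin chains, was at 132 and 179.6 CPM before and at 143 and 87.6 CPM after CMG in AngII rats. Levels under DOCA–HS were 62.3 and 98.3 CPM before and 74.0 and 285 CPM after. Psmd8, another lid subunit, was at 44.9 and 58.4 CPM before and at 42.2 and 31.7 CPM after in AngII rats, and at 21.6 and 31.7 CPM before and 26.3 and 90.0 CPM after under DOCA–HS. The DOCA–HS groups of both genes overlapped, with log2 fold changes of 1.16 (SE 0.71) for Psmd4 and 1.11 (SE 0.64) for Psmd8. Without the shallow library these were -0.11 for Psmd4 and -0.002 for Psmd8. Psmd1, a scaffold of the cap's base, was at 6.37 and 6.42 CPM before and 8.0 and 5.84 CPM after in AngII rats, and at 8.59 and 8.82 CPM before and 8.76 and 21.8 CPM after under DOCA–HS. Psmd5, a chaperone of cap assembly, was at 3.85 and 2.70 CPM before and at 4.80 and 4.51 CPM after in AngII rats, higher without overlap (log2 fold change 0.48, SE 0.34, edgeR adjusted p = 0.801). It was at 4.76 and 3.40 CPM before and at 3.46 and 3.52 CPM after under DOCA–HS.

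The 4 activators lay lower on average after CMG in AngII rats, and none was called. Psme1, which with Psme2 forms an interferon-induced ring that opens the core, was at 41.7 and 50.7 CPM before and at 30.9 and 37.6 CPM after CMG in AngII rats, without overlap (log2 fold change -0.41, SE 0.31). Its DOCA–HS levels were 41.4 and 42.2 CPM before and 37.7 and 50.6 CPM after. Psme2 was at 12.3 and 19.8 CPM before and at 13.1 and 13.8 CPM after in AngII rats, and at 15.6 and 16.5 CPM before and 15.7 and 18.3 CPM after under DOCA–HS. The groups of Psme2 overlapped in both models.

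Psme3, which forms a nuclear activator, was at 17.7 and 21.1 CPM before and at 15.2 and 14.4 CPM after CMG in AngII rats, lower without overlap (log2 fold change -0.36, SE 0.29). Under DOCA–HS it was at 19.5 and 14.6 CPM before and at 14.9 and 2.11 CPM after. The last value was 3 counts, where the level of the other after library would have given 21.2 counts. RefSeq's table names 4 copies of Psme3, so reads may have been split there. Psme4, a large activator that acts in DNA repair and spermatogenesis, was at 29.6 and 33.6 CPM before and at 22.6 and 19.3 CPM after in AngII rats, lower without overlap (log2 fold change -0.57, SE 0.30, edgeR adjusted p = 0.760). DOCA–HS rats had it at 19.3 and 23.3 CPM before and at 21.2 and 43.6 CPM after.

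Over all members, 0 of 40 were called up and 0 of 40 down in AngII rats, where the criterion was met upwards by 0.903% and downwards by 0.333% of the 7201 genes tested. DESeq2 also called 0. The median log2 fold change of the members was -0.29 and that of all genes -0.01. Below 0 lay 30 of the 40 members (75%), against 51% of all genes. Both after libraries lay below both before libraries for 16 members (40%, against 18.5% of all genes) and above them for 2, Psmb8 and Psmd5 (5%, against 21.3%).

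The side of 0 on which AngII members lay depends on the scaling, and their place relative to all genes less so. Per total count the median of all genes moved from -0.01 to 0.36 and that of the members from -0.29 to 0.14, so that the members stayed below all genes by 0.23, against 0.27 with TMM, while 15 of 40 changed sign. Without before replicate 1 the members' median was -0.46, and without before replicate 2 it was -0.11. All 4 erythroid markers counted lay below 0 as well, with a median of -0.47, as did 5 of 6 T cell markers, with a median of -0.44. The 4 tested markers of cytotoxic lymphocytes lay above 0, with a median of 0.95, as did 4 of 5 monocyte markers, with a median of 0.23. Of the 3 endothelial markers tested, Kdr was called up (2.43, SE 0.88, edgeR adjusted p = 0.663). It had 5 and 0 counts before and 9 and 19 after CMG. Pecam1 (-0.08) and Vwf (-0.03) lay below 0. The part of these cells in the members' values was not tested.

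In the DOCA–HS model 1 of 40 members, Psmb6, was called up and 0 down, where 1.79% of the 7720 genes tested were called up and 0.259% down. An unadjusted p of at most 0.05 was reached by 1 of 40 members, Psmb6, and by 3.17% of all genes. The members' median was 0.13 and that of all genes -0.04. Above 0 lay 28 members (70%, against 47.5% of all genes). With at least 10 counts required in every library, 29 members were left, 13 of them changed sign, and the medians were -0.08 for the members and -0.02 for all genes. All 4 erythroid markers lay above 0, with a median of 0.78. Their sum was 10029 and 14138 CPM before and 10669 and 35566 CPM after CMG, above both before libraries only in after replicate 2. The 3 platelet markers tested also lay above 0, with a median of 1.26 and Pf4 called up. Of the 2 endothelial markers tested, Vwf was called up too, while Pecam1 lay below 0, at -0.19. The 4 B cell and 6 T cell markers lay below 0, with medians of -0.92 and -0.38. The part of these cells in the members' values was not tested. Both after libraries lay above both before libraries for 3 members (7.5%, against 14.7%) and below them for 7 (17.5%, against 21.1%). Per total count the medians were -0.74 for the members and -0.76 for all genes, so no distance between them was left there.

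The DOCA–HS values rest on 1 library. Without after replicate 2, 0 of 40 members were called, the median was -0.10 and 19 members changed sign. Without after replicate 1, so with the shallow library as the only one after CMG, 7 members were called: Psmb6, Psmd4 and Psmd8 up, and Psmb8, Psme3, Psma1 and Psma2 down. That fit took its spread from the before libraries, the lone after library being assumed to vary like them, and it called 7.46% of all genes up and 13.6% down. Of 40 tested members, 19 had more counts in the shallow library than the level of after replicate 1 would have given, with that number below the exact Poisson 95% interval of the count, as had 18.8% of all genes. Fewer counts in the same sense were found for 4 members and for 15.9% of genes. The chi-square between the libraries of a group, divided by its degrees of freedom, was 9.86 over the members in the DOCA–HS after group, 4.25 in the DOCA–HS before group and 2.40 (before) and 5.24 (after) in the AngII groups. Over all genes these were 84.8, 94.6, 15.4 and 21.3, highest in the DOCA–HS before group.

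**Figure D3:**
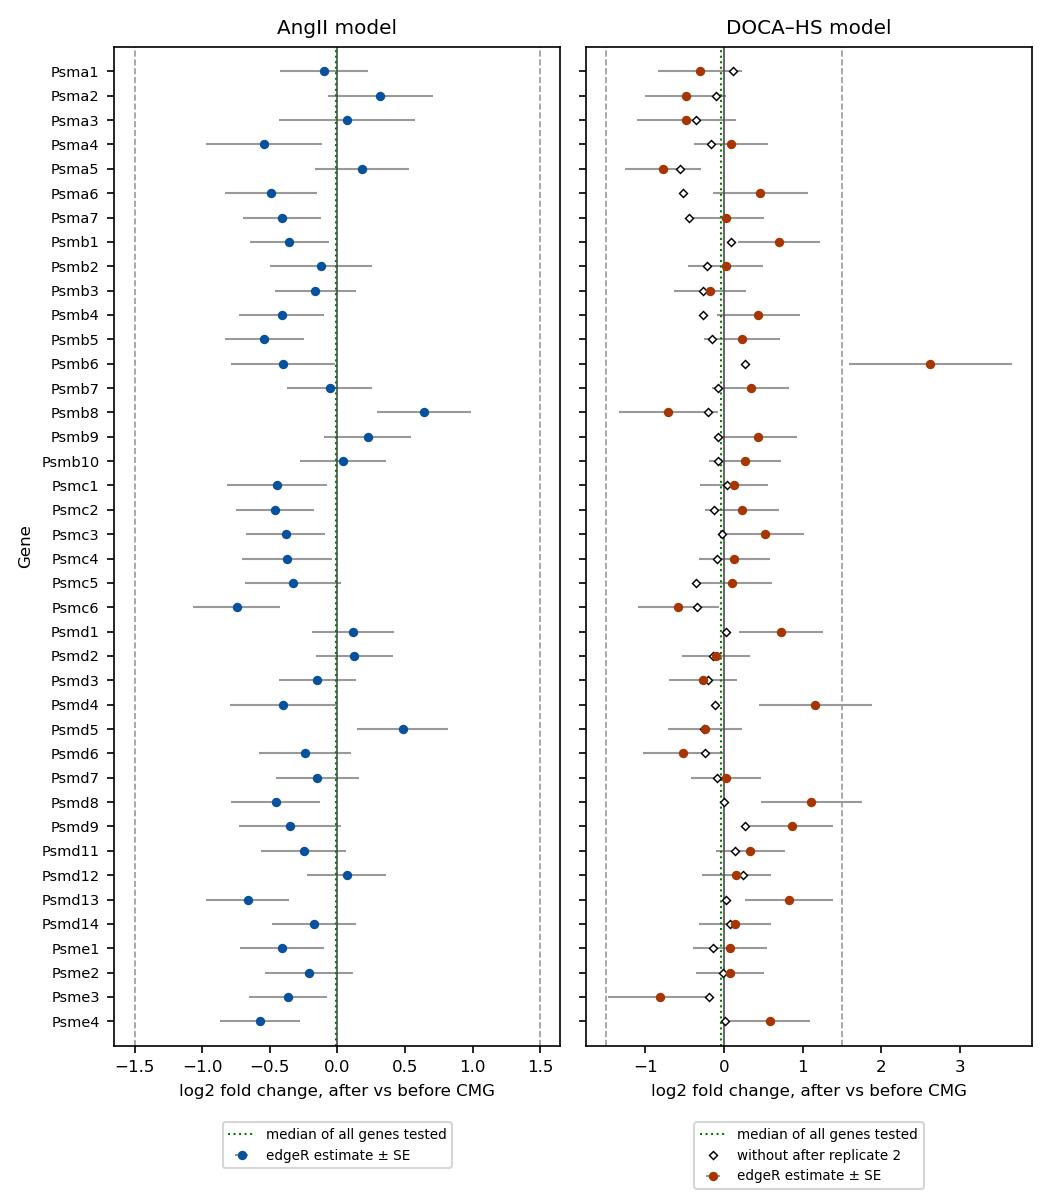
Log2 fold change after against before CMG (horizontal axis) with its SE for each of the 40 tested proteasome genes (vertical axis) in AngII rats (left) and the DOCA–HS model (right); dashed lines mark 1.5 and the dotted line the median of all genes, and open diamonds give the DOCA–HS values without after replicate 2. In the AngII model 30 genes lie below 0 with TMM scaling, 15 of 40 changing sign per total count, and under DOCA–HS Psmb6 moves from 2.63 to 0.27 without that library.

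Whether the members changed differently in the models was tested in a fit of all 8 libraries. Psmb6 and Psmd13 were called, with a greater change under DOCA–HS than under AngII, so 2 of 40 members where 2.25% of the 7994 genes tested were called that way, and 0 of 40 the other way, where 0.913% were. The difference in log2 fold change was 2.95 for Psmb6 (SE 1.26, unadjusted p = 0.0397) and 1.51 for Psmd13 (SE 0.67, unadjusted p = 0.0463), both with an edgeR adjusted p of 0.881. Without DOCA–HS after replicate 2 it was 0.68 for Psmb6 and 0.70 for Psmd13, and neither was called. The calls of Psmb6 and of Psmd13 were lost when any 1 library other than DOCA–HS after replicate 1 was left out. Psmd9, named after its values were seen, was called at 1.76 without AngII after replicate 1. Without DOCA–HS after replicate 1, 8 members were called up (8.83% of all genes) and 3 down (14.4% of all genes). Psmb6 lay lower without overlap after CMG in AngII rats and higher under DOCA–HS, as did 2.11% of all genes, and Psmb8 the other way round, as did 3.39%. Per total count Psmd13 changed sign, to -0.05, while the median of all genes moved from -0.12 to -1.21. The next members by p were Psmd8 at 1.58 (SE 0.77), and in the other direction Psmb8 at -1.28 (SE 0.74), Psma5 at -0.92 (SE 0.57) and Psmd5 at -0.72 (SE 0.54), none called. An unadjusted p of at most 0.05 was reached by these 2 called members and by 3.74% of all genes. The median was 0.42 for the members and -0.12 for all genes, and 30 of 40 members (75%) lay above 0, against 44.5% of all genes.

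Before CMG, the DOCA–HS libraries were compared with the AngII libraries in the same fit, and 0 of 40 members were called up or down, where 0.425% of all genes were called up and 0.413% down. DESeq2 called 0 as well. The DOCA–HS libraries came from week 3 and the AngII libraries from week 1, so model and time cannot be told apart here. Psmb8 was the 1 member with an unadjusted p of at most 0.05, which 3.38% of all genes reached. It was higher under DOCA–HS, where 7.98 and 6.80 CPM stood against 3.62 and 2.87 CPM (log2 difference 1.17, SE 0.52, unadjusted p = 0.0451, edgeR adjusted p = 0.992). With counts scaled to those outside the hemoglobin genes, Psmb8 met the criterion, at 1.89, but the median of the members moved up as well. Psma5 (0.69, SE 0.38) and Psmd1 (0.44, SE 0.44) followed on the higher side. On the lower side stood Psmd8 (-0.96, SE 0.55), Psmd4 (-0.96, SE 0.62) and Psmd13 (-0.73, SE 0.47), and their groups did not overlap. Higher without overlap under DOCA–HS were 4 members (10%, against 24.3% of all genes), and lower were 13 (32.5%, against 21.2%). Below 0 lay 25 of 40 (62.5%, against 44.8%). Per total count 22 of 40 members changed sign, Psmd13 among them, while Psmb8 stayed higher and Psmd4 and Psmd8 lower. The erythroid markers summed to 10029 and 14138 CPM in the DOCA–HS and to 19941 and 26323 CPM in the AngII libraries before CMG, and their part in these differences was not tested.

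Some cap subunits followed the summed erythroid markers from library to library. Per 100000 counts of the erythroid markers Alas2, Slc4a1, Ahsp and Epb42, Psmd8 had 225 and 222 counts before and 214 and 248 after CMG in AngII rats, and 215 and 224 before and 246 and 253 after under DOCA–HS. Its highest value was 1.18 times its lowest, where in CPM it was 4.17 times. For Psmd4 the span was 1.29-fold, from 621 to 803 counts, where in CPM it was 4.59-fold. For Psma6, an alpha subunit, it was 1.41-fold, from 179.9 to 254 counts, where in CPM it was 3.07-fold. These 3 of the 40 members stayed within 1.5-fold, as did 1.26% of the 6805 genes with a count in every library.

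This description was chosen after the values were seen. Without the shallow library the same 1.5-fold limit held 3 of 40 members and 3.41% of genes. The sum of the markers was mostly Alas2, the enzyme that begins heme synthesis in red cells. Per count of Alas2 alone Psmd8 spanned 1.15-fold, and per count of Slc4a1, the anion exchanger of the red cell membrane, 2.28-fold. Per count of Ahsp it spanned 1.91-fold and of Epb42 1.93-fold. Psmd4 spanned 1.26-fold per count of Alas2 and 1.95-fold to 2.18-fold per count of Slc4a1, Ahsp or Epb42. Psma6 spanned 1.44-fold per count of Alas2, 1.62-fold of Epb42, 2.06-fold of Slc4a1 and 2.53-fold of Ahsp. Per count of the hemoglobin gene Hbb the spans were 2.02-fold (Psmd8), 1.93-fold (Psmd4) and 3.16-fold (Psma6). The close fit was thus to Alas2 and not to each erythroid marker. Over all members, 13 of 40 had a narrower span per erythroid count than in CPM, as did 19.9% of genes, and without the shallow library 8 of 40 had, as did 15.9% of genes. The spans in CPM were then 2.71-fold for Psmd8, 2.88-fold for Psmd4 and 2.80-fold for Psma6.

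Psmb8 ran against the erythroid markers. In order of rising erythroid sum, Psmb8 was at 7.98 (DOCA–HS before 1), 6.38 (DOCA–HS after 1), 5.99 (AngII after 2), 6.80 (DOCA–HS before 2), 4.0 (AngII after 1), 3.62 (AngII before 1), 2.87 (AngII before 2) and 0.70 CPM (DOCA–HS after 2). Only the fourth value, 6.80, broke the falling order. The last value, 0.70, was 1 count. The 8 libraries share their scaling, in which a larger share of 1 cell type lowers that of the others. No test was made of this order, and how many other genes share it was not counted.

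**Figure D4:**
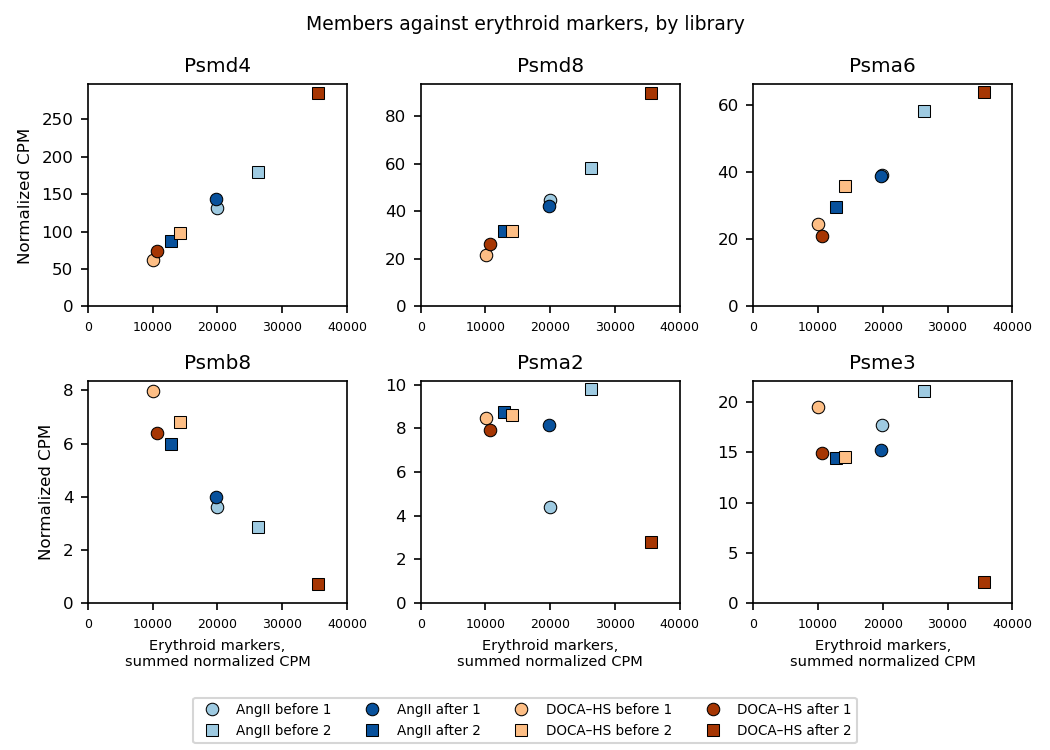
Normalized CPM of 6 proteasome genes (vertical axes) against the summed normalized CPM of the erythroid markers (horizontal axes), 1 point per library. Psmd4, Psmd8 and Psma6 rise with the markers, and Psmb8 falls from 7.98 to 0.70 CPM, the latter being 1 count. Psma2 and Psme3 are low in DOCA–HS after replicate 2.

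Genes that work with the proteasome showed no call in any of the 4 comparisons, by edgeR, for the partners counted (16 of a list of 20: assembly factors, regulators and associated enzymes), for ubiquitin genes and shuttle factors (13 of 13) and for MHC class I peptide loading (9 of 10). At an unadjusted p of at most 0.05, the AngII model had 1 partner, the regulator Nfe2l2, and the other lists and comparisons 0. Nfe2l2 was at 4.24 and 5.41 CPM before and at 9.92 and 10.3 CPM after CMG in AngII rats, without overlap. Its log2 fold change there was 1.10 (SE 0.29, edgeR unadjusted p = 0.00558, edgeR adjusted p = 0.628), short of the criterion. Under DOCA–HS the log2 fold change of Nfe2l2 was 0.09 (SE 0.56). Its part in the members' values was not tested. The partners had a median log2 fold change of -0.26 in AngII rats, with 3 of 13 tested above 0, where 51% of all genes lay below 0. Under DOCA–HS their median was 0.35, with 12 of 15 above 0, against 47.5% of all genes. Those DOCA–HS values include the shallow library, and no values without it are given here for the partners. Nfe2l1, which drives proteasome genes, was at 7.39 and 7.77 CPM before and 6.56 and 10.3 CPM after CMG in AngII rats, and at 9.31 and 8.07 CPM before and 10.5 and 14.1 CPM after under DOCA–HS. Psmf1, an inhibitor of the core, had log2 fold changes of -0.26 (SE 0.46) and 0.20 (SE 0.53). Pomp, the maturation factor of the core, had 5 to 20 counts a library and was tested only with the DOCA–HS libraries in the fit (2.03 in that model, SE 1.31, edgeR adjusted p = 0.997).

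Of the 12 interferon-gamma response genes, Socs1, an inhibitor of interferon signalling, was called. It fell after CMG in AngII rats, from 4.95 and 4.73 CPM to 0.64 and 1.04 CPM (log2 fold change -2.42, SE 0.40, edgeR adjusted p = 0.547), and before CMG it was lower under DOCA–HS, at 1.22 and 1.17 CPM (log2 difference -2.01, SE 0.41). The other genes of the list were not called in any comparison, and 9 of the 11 tested lay above 0 in AngII rats, with a median of 0.33, and 6 of 11 under DOCA–HS, with a median of 0.01.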

How the data were processed

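RNA was measured by sequencing of whole blood. The authors aligned reads to rn6 with HISAT2 and counted them on genes by strand with HTSeq. They deposited these counts without normalization. They state that hemoglobin annotations were removed before counting, yet Hbb and LOC100134871 are among the counts. Proteasome genes were read from fits over all genes (edgeR 4.0.16, R 4.3.3: filterByExpr, TMM, glmQLFit, glmQLFTest), with 4 libraries per model, or all 8 with 4 group means for comparisons between models. The computation was tested on simulated data. The members and gene lists were chosen with earlier results of these data known. Values in every library are given for the catalytic subunits, the activators, called members and, in each comparison, the 3 members of smallest p in each direction. Psma6 was named after its values were seen. Of the symbols, 43 of 43 matched RefSeq's table, and 18 members have named copies there, so their counts may be split. Alternatives were DESeq2 1.42.0, limma-voom (limma 3.58.1), other scalings, filters and thresholds, a replicate block, and each library left out. Poisson intervals cover counting error only.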

Additional observations from a re-analysis of the deposited data

Results flagged for a closer look

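The change after CMG met the criterion for a difference between the models in 2 of 40 members, where 2.25% of all genes did in that direction and 0.913% in the other. The log2 fold change of Psmb6 was greater under DOCA–HS than under AngII by 2.95 (SE 1.26, unadjusted p = 0.0397), and by 0.68 without DOCA–HS after replicate 2. That of Psmd13 was greater by 1.51 (SE 0.67, unadjusted p = 0.0463), and by 0.70 without that library. Both had an edgeR adjusted p of 0.881. Neither was called per total count, where Psmd13 was at -0.05 and the median of all genes at -1.21. Nor was either called with scaling outside the hemoglobin genes, limma-voom or at least 10 counts in every library. Both calls were also lost with any 1 library other than DOCA–HS after replicate 1 left out. Psmd13 was not called without a filter or with the replicate block.

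For 2 members every after library lay on one side of every before library in the AngII model and on the other side in the DOCA–HS model, which all genes did at 2.11% (lower, then higher) and 3.39% (higher, then lower). Psmb6 was lower in the AngII model and higher in the DOCA–HS model, where its log2 fold change was 2.63. Its DOCA–HS levels were 1.44 and 1.38 CPM before and 1.69 and 20.4 CPM after CMG, so that value rests on after replicate 2. Psmb8 was higher in the AngII model and lower in the DOCA–HS model, where its log2 fold change was -0.71. It had 1 count in DOCA–HS after replicate 2. The edgeR test of the difference gave -1.28 (SE 0.74, unadjusted p = 0.113) for Psmb8, short of the criterion. No group had enough libraries for a test of outliers.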

How the results depend on the processing

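Of 40 tested members, 0 were called in the AngII model, 1 in the DOCA–HS model, 2 for the difference between the models and 0 before CMG. Unadjusted p alone gave 1 in the AngII model and 1 before CMG. An adjusted p under 0.05, scaling per total count and scaling to counts outside the hemoglobin genes each gave 0 in the DOCA–HS model and 0 for the difference, and the last gave 1 before CMG (Psmb8). At least 10 counts in every library left 29 members, with 0 called in the DOCA–HS model and 0 for the difference. Limma-voom gave 0 for the difference. Deviations of libraries with the same number correlated at 0.47 (AngII) and 0.32 (DOCA–HS) over 2 pairs a model, which the labels do not tie to a rat. With the replicate block the difference had 1 call, Psmb6, and the other counts of calls did not move by over 1.5 times.

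Per total count, the median log2 fold change of the members was 0.14 (AngII), -0.74 (DOCA–HS), -0.88 (difference) and 0.69 (before CMG). Outside the hemoglobin genes it was 0.15, -0.34, -0.50 and 0.60. All genes moved with them. With at least 10 counts it was -0.081 in the DOCA–HS model, 0.051 for the difference and 0.12 before CMG. The summed level had log2 differences of -0.35 and 0.40, which became 0.023 and -0.67 per total count and 0.030 in the AngII model outside the hemoglobin genes. Psmd13 changed sign, to -0.051, for the difference per total count, where the median of all genes was -1.21.

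With each library left out, the AngII median ranged from -0.46 to -0.11 and that before CMG from -0.29 to 0.018. Calls ranged from 0 to 7 in the DOCA–HS model and from 0 to 11 for the difference, both highest without DOCA–HS after replicate 1. Without AngII after replicate 1 the difference had 1 call, Psmd9. Without DOCA–HS after replicate 2 the difference had 1 call, Psmd10, downward and from 0 counts in the remaining after library. The log2 difference in the ratio of inducible to standard catalytic counts ranged from 0.30 to 0.64 (AngII) and from -0.92 to -0.02 (DOCA–HS). Without DOCA–HS after replicate 2 it was -0.02, and the other after ratio, 1.79, lay between the before ratios of 1.96 and 1.69. The lower DOCA–HS ratio after CMG thus rests on that library. Causes were not tested. Depth limits members with few counts in the shallow library.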
